A study of Homo sapiens with 12 samples.

Results

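Translation initiation and elongation factors are the proteins that bring the ribosome to an mRNA, set it on a start codon and move it along the message. Their genes were taken as the protein-coding genes of the deposited count table whose GENCODE 29 name starts with EIF or EEF followed by a digit, which gave 69 of 58051 genes. The name also takes in regulators of these factors, among them the eIF4E-binding proteins (EIF4EBP genes), the eIF2 kinases and enzymes that modify elongation factors. Of the 69 genes, 66 passed the filter on low counts and were tested. The other members were EEF1E1-BLOC1S5, EIF4E1B, with 37 counts over all libraries, and EIF1AY.

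The cells were NB-1, an established human neuroblastoma line with amplified MYCN and ALK genes, and all cultures came from this 1 line. Cultures were treated for 48 h with the solvent DMSO, with 0.5 µM BEZ-235 (dactolisib, an inhibitor of PI3K and of the kinase mTOR), with 0.5 µM SAHA (vorinostat, an inhibitor of histone deacetylases) or with both drugs at these doses. Polyadenylated RNA of 3 biological replicates per group was sequenced, 12 libraries in all. A p-value here measures the spread between cultures of this line, and in bulk RNA fewer cells of a type and less RNA per cell cannot be told apart.

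As background, initiation begins when eIF4E binds the cap of an mRNA, the scaffold eIF4G and the helicase eIF4A join it, and eIF3 links this complex to the small ribosomal subunit. eIF2 carries the initiator tRNA, eIF1 and eIF1A guard the choice of the start codon, and the eEF1 complex and eEF2 drive elongation. mTOR steers the process through the eIF4E-binding proteins, which hold eIF4E back when they are not phosphorylated, and through LARP1, which holds mRNAs that begin with a 5′ terminal oligopyrimidine (TOP) tract: a C at the cap followed by a run of C and T. Ribosomal proteins, elongation factors and several eIF3 subunits are known for such mRNAs, whose translation falls when mTOR is blocked.

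The starts of the members are shown here because members that begin with such a tract differed from the others. A run was defined as C at the annotated start followed by at least 4 pyrimidines on the sense strand. Promoter entries of RefSeq (GRCh38.p14) matched 55 of the 69 members, and 13 of these, 23.6%, had a run. Of all 35116 entries of the same length 4.07% had a run, which is a share of entries and not of genes. Of the 14860 protein-coding genes with an entry 6.37% had a run in any of their entries, counted by gene as for the members. Each sequence is 30 bases, 10 before the annotated start and 20 after it, 5′ to 3′, with the run in capitals.
EEF1A1, chr6:73521013-73521042, minus strand: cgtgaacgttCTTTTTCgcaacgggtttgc
EEF1B2, chr2:206159885-206159914, plus strand: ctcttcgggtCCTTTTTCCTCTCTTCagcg
EEF2, chr19:3985444-3985473, minus strand: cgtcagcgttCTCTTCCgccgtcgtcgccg
EIF2A, chr3:150546777-150546806, plus strand: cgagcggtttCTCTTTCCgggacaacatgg
EIF2D, chr1:206612446-206612475, minus strand: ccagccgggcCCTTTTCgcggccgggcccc
EIF2S3, chrX:24054946-24054975, plus strand: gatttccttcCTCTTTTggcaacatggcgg
EIF2S3B, chr12:10505880-10505909, plus strand: gactttcttcCTCTTTTggcaacatggcgg
EIF3D, chr22:36529147-36529176, minus strand: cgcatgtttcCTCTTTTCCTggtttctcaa
EIF3F, chr11:7987327-7987356, plus strand: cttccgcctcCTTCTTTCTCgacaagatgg
EIF3K, chr19:38619178-38619207, plus strand: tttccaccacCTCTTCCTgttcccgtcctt
EIF3M, chr11:32583821-32583850, plus strand: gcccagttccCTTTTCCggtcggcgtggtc
EIF4A2, chr3:186783567-186783596, plus strand: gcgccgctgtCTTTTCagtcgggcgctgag
EIF4B, chr12:53006446-53006475, plus strand: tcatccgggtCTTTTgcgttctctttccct

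These runs were 5 to 16 bases long, shortest in EIF4B and longest in EEF1B2, whose other annotated start had none. EIF2S3B also had a second annotated start, 3 bases downstream, with none. The windows of EIF2S3B and of EIF2S3, a closely similar gene, differed in the bases before the start and had the same run. The starts of 4 members without a run at the start are set beside them. EIF4E, EIF4EBP2 and EEF2K fell with BEZ-235, and EIF1 rose the most. EIF1, EIF4EBP2 and EEF2K did have a run that begins within 10 bases of the start. The 4 do not stand for all 39 tested members without a run at the start, of which 8 rose and 10 fell.
EIF1, chr17:41688875-41688904, plus strand: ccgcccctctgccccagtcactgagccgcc
EIF4E, chr4:98929114-98929143, minus strand: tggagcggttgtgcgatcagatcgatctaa
EIF4EBP2, chr10:70404135-70404164, plus strand: gccttcgcccgcttccggtcgtcgtcgtcg
EEF2K, chr16:22206268-22206297, plus strand: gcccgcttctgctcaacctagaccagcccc

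For 14 members no promoter entry was at hand: EEF1A2, EEF1AKMT1, EEF1AKMT3, EEF1D, EEF2KMT, EIF2AK1, EIF2S2, EIF3A, EIF3CL, EIF3E, EIF3G, EIF3H, EIF3L and EIF4EBP1. A match describes the letters in this window and not the start used in NB-1.

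Libraries held 17662944 to 79543539 counts, the deepest being replicate 2 of the SAHA group, and a level in CPM is the count scaled by the TMM-adjusted total of its library, a share of each library and not an amount per cell. Genes of adrenergic neuroblastoma, a list of 12, summed to 6091 to 8386 CPM with none at 0 in all libraries. Most of this sum was the amplified genes ALK, with group means of 3897 to 5039 CPM, and MYCN, with 792 to 1062. DBH was low at 0.830 to 4.01 CPM. The mean of TH was 138 CPM in DMSO and 38.6 to 53.9 in the treated groups. Of the other markers, SOX10 was at 0 in all 12 libraries and PTPRC in 10 of them. The 5 fibroblast markers, none of them at 0 in all libraries and mostly LUM, summed to 67.6 to 72.2 CPM in DMSO, 18.4 to 22.0 with BEZ-235, 351 to 383 with SAHA and 128 to 154 with both drugs. Their part in the results below was not tested. The change with both drugs went with the GC content of genes across all 17644 genes with a value (Spearman's rho 0.357, and 0.676 for the interaction, against -0.087 for BEZ-235 and -0.142 for SAHA). Values of the combination are therefore given also after an offset for GC content and transcript length, fitted in each library, where it moved a called member named here by over 1.5 times or changed its call. Genes outside the family are given without it.

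BEZ-235 raised the mRNA of many factors. Over all members together the level was 21320 to 24340 CPM in the DMSO cultures, 33490 to 35070 with BEZ-235, 18610 to 20950 with SAHA and 29150 to 33080 with both drugs. Both groups given BEZ-235 thus lay above both groups without it, with no overlap. EEF1A1 alone made up 29.1 to 37.4% of this sum. Of the 66 tested members 26 (39.4%) rose with BEZ-235 and 12 (18.2%) fell, in edgeR's quasi-likelihood test at a Benjamini-Hochberg adjusted p under 0.05. Among all 17774 genes tested, 25.5% rose and 25.4% fell. With the offset 28 members rose and 14 fell, beside 28.3% and 27.7% of all genes. The libraries of the 2 groups did not overlap for any of the 38 members called without the offset. How often this held among all called genes was not counted, so it says nothing particular to the members. The median log2 change of the members was 0.09, beside 0.02 for all genes, so members lay on both sides of 0.

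**Figure D1:**
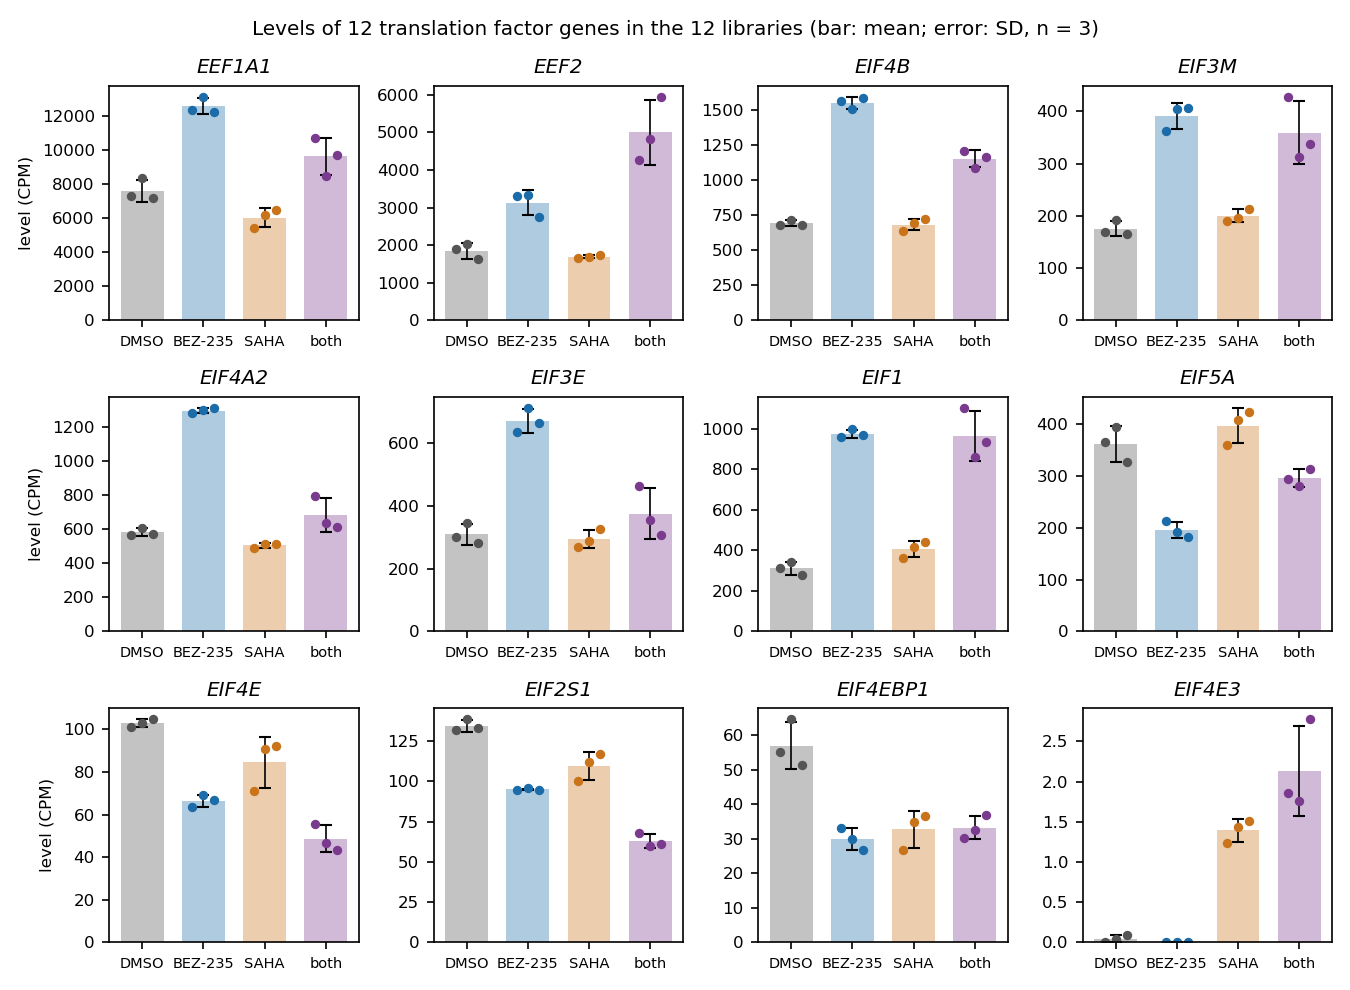
Levels in CPM (vertical axes, from 0) of 12 members in the 4 groups (horizontal axes); points are the 3 libraries of a group, bars their mean and error bars the SD. EEF1A1, EIF4B and EIF3M stood higher in both groups given BEZ-235, EIF4E and EIF2S1 were lowest with both drugs, and EIF4E3 was at 0 to 0.0889 CPM without SAHA.

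The split followed the TOP mRNAs. A list of 15 members known for TOP mRNAs, drawn up from general knowledge, held EEF1A1, EEF1B2, EEF1D, EEF1G, EEF2, EIF2S3, EIF3A, EIF3E, EIF3F, EIF3G, EIF3H, EIF3K, EIF3L, EIF3M and EIF4B. With BEZ-235, 12 of the 15 (80%) rose and none fell, with a median log2 change of 0.72 and a range of 0.10 to 1.16. Of the 51 tested members outside the list 14 (27.5%) rose and 12 (23.5%) fell, with a median of -0.07. These shares were near the 25.5% and 25.4% of all genes. The 3 listed members that did not pass were EIF3G at 0.25, EIF3K at 0.17 and EEF1D at 0.10. With each library left out in turn, 12 to 14 of the listed members rose.

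The sequence at the start gave a similar division, but not an independent one. EEF1A1, EEF1B2, EEF2, EIF2S3, EIF3F, EIF3K, EIF3M and EIF4B were on the list and also had a run. Both classes were chosen with earlier results of these data known. Of the 13 with a run, 12 (92.3%) rose with BEZ-235 and none fell, beside 25.5% and 25.4% of all genes. Their median was 0.74. Of the 39 tested members with an entry and no run 8 (20.5%) rose and 10 (25.6%) fell, with a median of -0.09. Of the 14 without an entry, among them the listed EEF1D and EIF3G, 6 (42.9%) rose and 2 (14.3%) fell, with a median of 0.18. Without a library the count of risen members with a run was 11 to 13. Widening the definition to a run that begins within 10 bases of the start took in 52.7% of the members with an entry but also 41.4% of protein-coding genes. The 27 tested members of that wider class had a median of 0.44, with 15 (55.6%) higher and 3 (11.1%) lower.

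Over all 793 tested protein-coding genes with a run at the start, 321 (40.5%) rose and 172 (21.7%) fell with BEZ-235, with a median of 0.17. Among all genes 25.5% rose and 25.4% fell. Members and ribosomal protein genes were not taken out of the 793, and the shares without them were not computed. The gene sets that follow can share genes with it. The 77 cytosolic ribosomal protein genes had a median of 0.85, with 74 higher and 1 lower. Of 6 further genes with well known TOP mRNAs 5 rose, with a median of 0.87, among them PABPC1, which binds poly(A) tails, at 1.02, the ribosome-bound scaffold RACK1 at 1.05 and TPT1 at 1.03.

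**Figure D2:**
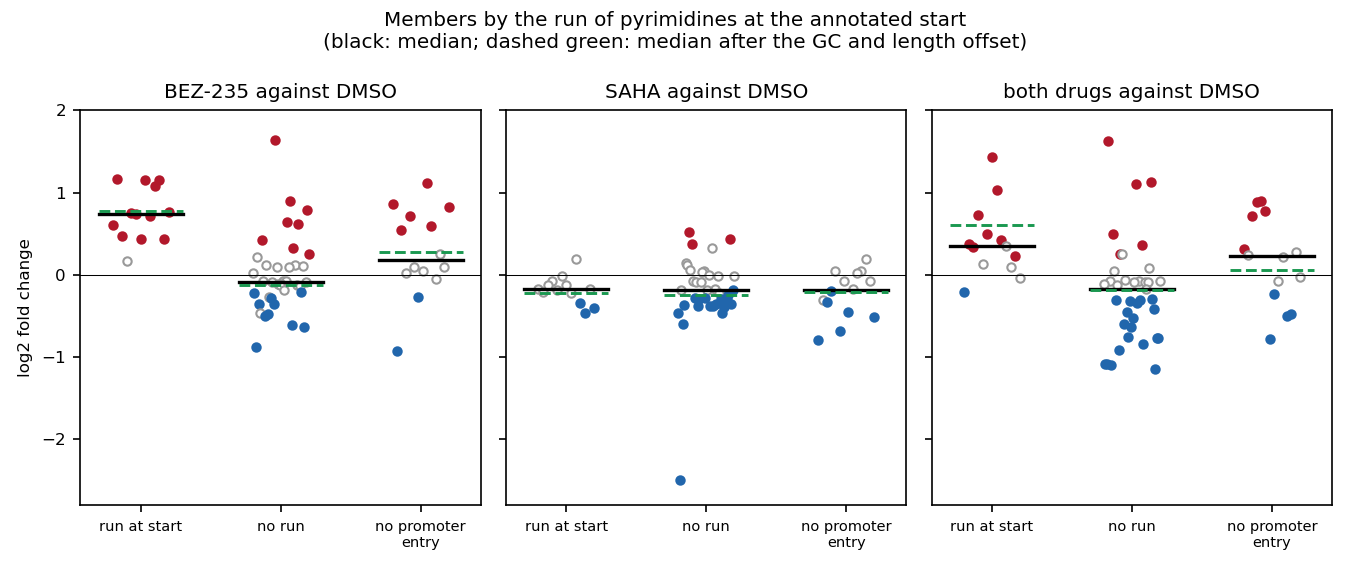
Log2 fold change (vertical axes) of the tested members with a run at the annotated start, without one and without a promoter entry, in the 3 comparisons against DMSO; EIF4E3 is left out of the points for scale. Red points were called higher, blue lower and open points neither; the black line is the median and the dashed green line the median after the GC and length offset. With BEZ-235 the members with a run lay between 0.17 and 1.16.

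**Figure D3:**
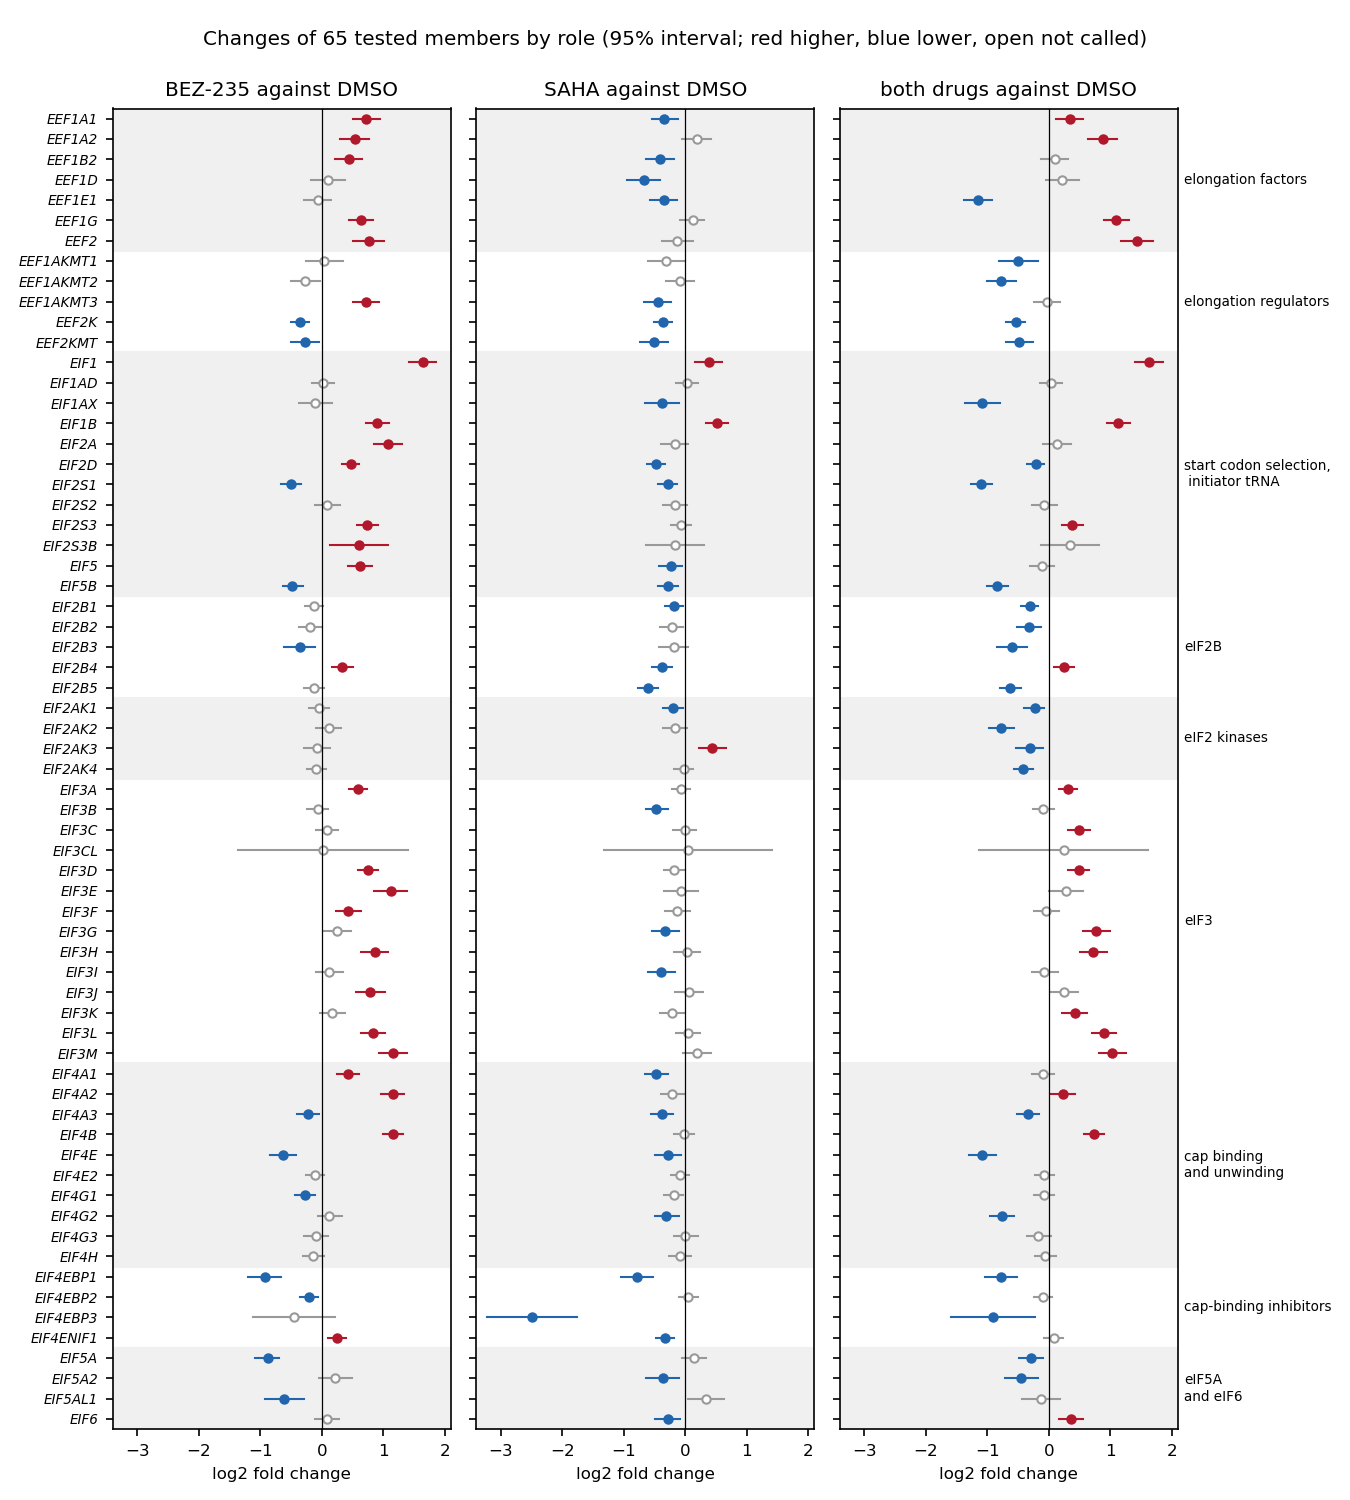
Log2 fold change with 95% interval (horizontal axes) of the tested members without EIF4E3, ordered by role, for each treatment against DMSO. Red was called higher, blue lower, and open points passed no test. Elongation factors and eIF3 subunits lie to the right with BEZ-235, while the 4 eIF2 kinases lie between -0.09 and 0.11 there and to the left of 0 with both drugs.

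Elongation factors rose with BEZ-235 in 5 of 7 cases (71.4%) and fell in none, beside 25.5% and 25.4% of all genes. EEF1A1, which delivers aminoacyl-tRNA to the ribosome, was at 7339, 8364 and 7181 CPM in DMSO, 12360, 13120 and 12260 with BEZ-235, 5417, 6207 and 6517 with SAHA, and 10710, 8494 and 9700 with both drugs. All 3 BEZ-235 libraries lay above all DMSO libraries, those of SAHA lay below, and those of the combination lay between. The log2 change was 0.72 ± 0.10 (SE; edgeR adjusted p = 1.96e-05) with BEZ-235, -0.34 ± 0.10 (adjusted p = 0.0132) with SAHA and 0.34 ± 0.10 (adjusted p = 0.00787) with both drugs. The SAHA call was lost without replicate 2 of DMSO or replicate 1 of SAHA, and the call for both drugs without replicate 1 or 3 of DMSO or replicate 1 of the combination, with edgeR adjusted p of 0.0522 to 0.0599. Per kilobase of its longest transcript EEF1A1 had the highest level of all members in DMSO at 1718 CPM, followed by EEF1G at 718, EEF2 at 586 and the helicase gene EIF4A1 at 481.

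EEF2, the factor that moves the ribosome to the next codon, was at 1906, 2037 and 1623 CPM in DMSO, 3311, 3341 and 2745 with BEZ-235, 1669, 1680 and 1749 with SAHA and 4254, 4816 and 5937 with both drugs. Here the combination stood above BEZ-235 alone, and SAHA overlapped DMSO. The change was 0.76 ± 0.12 with BEZ-235 (adjusted p = 5.91e-05), -0.13 with SAHA (interval -0.38 to 0.12) and 1.43 ± 0.12 with both drugs (adjusted p = 2.97e-08). With the GC and length offset the last was 1.09, and the difference between both drugs and BEZ-235 alone went from 0.68 to 0.22 (adjusted p = 0.0328).

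EEF1G, a structural subunit of eEF1, was also highest with both drugs, at 1734, 2013 and 1632 CPM in DMSO, 2878, 2820 and 2655 with BEZ-235, 1863, 1942 and 2033 with SAHA and 4002, 3456 and 4066 with both drugs. It rose by 0.64 with BEZ-235 and by 1.10 with both drugs (0.94 with the offset). EEF1B2, a nucleotide exchange subunit, rose by 0.44 with BEZ-235, fell by 0.41 with SAHA and was at 0.10 with both drugs. EEF1D, the other exchange subunit, was at 0.10 with BEZ-235 (interval -0.17 to 0.37) and fell by 0.68 with SAHA.

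EEF1A2, the isoform of neurons and muscle, was at 175 to 217 CPM in DMSO, 259 to 305 with BEZ-235, 219 to 235 with SAHA and 312 to 429 with both drugs. It rose by 0.54 ± 0.11 with BEZ-235 (adjusted p = 0.000669) and by 0.88 with both drugs, or 0.41 with the offset. The SAHA value was 0.19 with an adjusted p of 0.187, and 0.46 with an adjusted p of 1.97e-05 after the offset. Its share of the reads of the 2 eEF1A genes was 2.38 to 2.69% in DMSO and 2.07 to 2.41% with BEZ-235, which overlapped. It was 3.48 to 3.88% with SAHA and 2.83 to 4.23% with both drugs. EEF1E1, which is a scaffold protein of the tRNA synthetase complex in spite of its symbol, was at -0.07 with BEZ-235, fell by 0.35 with SAHA and fell by 1.15 with both drugs (0.57 with the offset). Its SAHA call was lost without replicate 1 of SAHA, with an adjusted p of 0.0541. Reads of the readthrough gene EEF1E1-BLOC1S5, 63 in all, lay in 2 libraries of the combination and in no other, at 0.691 and 2.28 CPM.

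Among regulators of elongation, EEF2K, the kinase that inhibits eEF2, was at 64.5 to 68.3 CPM in DMSO, 49.5 to 53.7 with BEZ-235, 49.8 to 53.2 with SAHA and 44.1 to 46.9 with both drugs. All treated libraries lay below all DMSO libraries. It fell by 0.36 ± 0.07 with each drug alone (adjusted p = 0.000503 and 0.000545) and by 0.53 with both. EEF2KMT, which methylates eEF2, fell by 0.27 with BEZ-235, by 0.51 with SAHA and by 0.48 with both drugs. Its BEZ-235 call had an adjusted p of 0.0385 and was lost without replicate 1 or 2 of DMSO, 1 or 3 of BEZ-235 or 2 of SAHA. Of the 3 methyltransferases of eEF1A, EEF1AKMT3 rose by 0.72 with BEZ-235, while EEF1AKMT1 was at 0.04 and EEF1AKMT2 at -0.27.

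Subunits of eIF3, the scaffold of the initiation complex, rose with BEZ-235 in 8 of 14 cases (57.1%) and fell in none. Among all genes 25.5% rose and 25.4% fell. The risers were EIF3A (0.59), EIF3D (0.75), EIF3E (1.12), EIF3F (0.43), EIF3H (0.86), EIF3J (0.79), EIF3L (0.83) and EIF3M (1.15). The others were EIF3B at -0.07, EIF3C at 0.09, EIF3CL at 0.02, EIF3G at 0.25, EIF3I at 0.12 and EIF3K at 0.17. Proteins of the complex thus had mRNAs that did not move alike, and the core subunits EIF3B and EIF3I were among those near 0.

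EIF3M was at 169, 193 and 165 CPM in DMSO, 362, 404 and 406 with BEZ-235, 191, 196 and 214 with SAHA and 427, 314 and 337 with both drugs. Both groups with BEZ-235 lay above both without it. The change was 1.15 ± 0.11 with BEZ-235 (adjusted p = 1.87e-07), 0.19 with SAHA and 1.03 with both drugs, or 1.57 after the offset. EIF3E was at 302, 346 and 281 CPM in DMSO, 638, 712 and 665 with BEZ-235, 268, 289 and 326 with SAHA, and 465, 356 and 307 with both drugs. The combination libraries overlapped DMSO. EIF3E rose by 1.12 ± 0.13 with BEZ-235 (adjusted p = 3.47e-06), and with both drugs it was at 0.28 (adjusted p = 0.0682) or at 0.85 after the offset (adjusted p = 4.89e-07).

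With SAHA alone 3 of 14 eIF3 subunits fell, 21.4% beside 20.9% of all genes: EIF3B by 0.47, EIF3I by 0.39 and EIF3G by 0.33. The EIF3G call was lost without replicate 2 of DMSO or without replicate 1 or 2 of SAHA. With both drugs 8 of 14 subunits (57.1%) rose and none fell, or 11 and 1 after the offset, where the 1 was EIF3B at -0.32. Among all genes 33.2% rose and 31.2% fell, or 34.6% and 30.9% after the offset. The subunits that rose with both drugs but did not pass with BEZ-235 were EIF3C at 0.49, EIF3G at 0.77 and EIF3K at 0.42, or 0.49, 0.41 and 0.26 with the offset. Those that passed only with BEZ-235 were EIF3E, EIF3F at -0.04 with both drugs, and EIF3J at 0.25. These 3 were at 0.85, 0.31 and 0.79 after the offset, each called higher, so the contrast between the treatments was not kept.

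Factors of start codon selection and of the initiator tRNA rose with BEZ-235 in 7 of 12 cases (58.3%) and fell in 2 (16.7%). Among all genes 25.5% rose and 25.4% fell. EIF1, which keeps the ribosome scanning until it meets a good start codon, was at 314, 345 and 280 CPM in DMSO, 960, 999.9 and 970.1 with BEZ-235, 364, 417 and 440 with SAHA, and 1103, 861 and 936 with both drugs. The groups with BEZ-235 lay far above the others, and all SAHA libraries lay above all DMSO libraries. The change was the largest rise of the family with BEZ-235, 1.64 ± 0.10 or 3.12-fold (adjusted p = 2.06e-09). It was 0.38 with SAHA (adjusted p = 0.00646) and 1.63 with both drugs (1.69 with the offset). EIF1B, its paralog, rose with each treatment as well, by 0.90 with BEZ-235, 0.52 with SAHA and 1.13 with both drugs.

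EIF1AX, which works with eIF1 on the scanning ribosome, was at -0.11 with BEZ-235, fell by 0.38 with SAHA and fell by 1.08 with both drugs (0.38 with the offset). The SAHA call was lost without replicate 3 of DMSO or replicate 1 or 2 of SAHA. EIF1AD, which shares a domain with it, was at 0.02 to 0.04 in the 3 comparisons. EIF5, which triggers GTP hydrolysis at the start codon, rose by 0.62 with BEZ-235 and fell by 0.24 with SAHA. EIF5B, which joins the large subunit, fell by 0.48 with BEZ-235, 0.28 with SAHA and 0.84 with both drugs (0.34 with the offset).

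The 3 subunits of eIF2 moved apart. EIF2S1, the alpha subunit that the stress kinases phosphorylate, was at 132, 139 and 133 CPM in DMSO, 94.9, 95.6 and 94.6 with BEZ-235, 100.3, 112 and 117 with SAHA, and 68.1, 60.02 and 60.9 with both drugs. Every treated library was below every DMSO library, and those of the combination were the lowest. EIF2S1 fell by 0.50 with BEZ-235, by 0.29 with SAHA and by 1.10 with both drugs (0.59 with the offset; adjusted p = 6.70e-07). EIF2S2, the beta subunit, was at 0.09, -0.17 and -0.08. EIF2S3, the gamma subunit and the member of the TOP list here, rose by 0.74 with BEZ-235 and by 0.38 with both drugs (0.68 with the offset), and was at -0.07 with SAHA.

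EIF2A and EIF2D, which can deliver initiator tRNA in other ways, both had a run at the start and rose with BEZ-235, by 1.08 and 0.47. EIF2A was at 88.6, 97.2 and 89.6 CPM in DMSO, 183, 199 and 198 with BEZ-235, 73.9, 85.2 and 85.1 with SAHA, and 122, 91.2 and 88.5 with both drugs. With both drugs it overlapped DMSO, at 0.13 (interval -0.09 to 0.36), and after the offset it was 0.61 higher (adjusted p = 5.24e-07). EIF2D fell by 0.47 with SAHA and by 0.21 with both drugs, and after the offset the last value was -0.06.

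eIF2B, the exchange factor that recharges eIF2, was mostly lower with both drugs. EIF2B5, its catalytic subunit, was at 102 to 116 CPM in DMSO, 91.5 to 107 with BEZ-235, 66.0 to 74.4 with SAHA and 68.8 to 71.4 with both drugs. Both groups given SAHA lay below both groups without it. It fell by 0.60 with SAHA (adjusted p = 1.33e-05) and by 0.63 with both drugs, and was at -0.13 with BEZ-235. EIF2B4 rose by 0.33 with BEZ-235 and fell by 0.38 with SAHA, while EIF2B1 at -0.31 (-0.20 with the offset), EIF2B2 at -0.32 and EIF2B3 at -0.60 fell with both drugs.

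The 4 eIF2 kinases lay between -0.09 and 0.11 with BEZ-235, with edgeR adjusted p of 0.345 to 0.638. EIF2AK3, the kinase PERK of the endoplasmic reticulum, was at 27.8 to 32.6 CPM in DMSO, 26.1 to 30.4 with BEZ-235, 40.0 to 41.3 with SAHA and 21.2 to 27.6 with both drugs. SAHA alone stood above all other groups. It rose by 0.44 ± 0.10 with SAHA (adjusted p = 0.00173) and fell by 0.31 with both drugs, a value that was -0.16 (adjusted p = 0.0765) after the offset and that lost its call without replicate 3 of the combination. EIF2AK2, the kinase PKR that senses double-stranded RNA, fell by 0.77 with both drugs (0.32 after the offset). EIF2AK4, the kinase GCN2 of amino acid want, fell by 0.42 with both drugs. EIF2AK1, the heme-regulated kinase, fell by 0.20 with SAHA, a call lost in 7 of the fits that left out a library, and by 0.23 with both drugs.

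Among cap-binding and unwinding factors 3 of 11 (27.3%) rose with BEZ-235 and 3 fell, shares near those of all genes, and 5 did not pass. EIF4B, which stimulates the helicase and is itself a target of the mTOR pathway, was at 681, 718 and 678 CPM in DMSO, 1563, 1503 and 1580 with BEZ-235, 636, 694 and 719 with SAHA, and 1205, 1087 and 1164 with both drugs. SAHA overlapped DMSO, and the combination lay between DMSO and BEZ-235. The change was 1.16 ± 0.08 with BEZ-235 (adjusted p = 3.13e-09), -0.02 with SAHA (interval -0.18 to 0.14) and 0.73 with both drugs (0.79 with the offset).

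The helicase genes differed in size of change. EIF4A2 was at 566, 611 and 575 CPM in DMSO, 1283, 1302 and 1312 with BEZ-235, 491, 514 and 513 with SAHA, and 797, 639 and 615 with both drugs. It rose by 1.15 ± 0.09 with BEZ-235 (adjusted p = 2.67e-08). With both drugs it was 0.23 higher (adjusted p = 0.0352), a call lost in 8 of the fits that left out a library (0.09 without replicate 1 of the combination), and 0.73 higher after the offset. EIF4A1, the more abundant paralog, rose by 0.42 with BEZ-235, fell by 0.47 with SAHA and was at -0.09 with both drugs. EIF4A3, which works in the exon junction complex and not in initiation, fell with each treatment, by 0.22, 0.38 and 0.34.

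EIF4E, the cap-binding protein itself, was at 101, 103 and 105 CPM in DMSO, 63.4, 69.1 and 66.7 with BEZ-235, 70.9, 90.8 and 92.0 with SAHA, and 55.8, 46.7 and 43.5 with both drugs. All treated libraries lay below all DMSO libraries. It fell by 0.63 ± 0.10 with BEZ-235 (adjusted p = 8.08e-05), by 0.28 with SAHA (adjusted p = 0.0336) and by 1.08 with both drugs (0.67 with the offset). The SAHA call was lost without any of the 3 DMSO replicates or replicate 1 of SAHA. Pseudogenes of EIF4E held 7.03 to 14.4% of the reads counted for the gene and these copies together, so its level is uncertain by that much.

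Scaffold genes changed little with BEZ-235: EIF4G1 fell by 0.28, and EIF4G2 was at 0.12 and EIF4G3 at -0.09. EIF4G2, a scaffold that lacks the eIF4E site, fell by 0.31 with SAHA and by 0.76 with both drugs (0.39 with the offset), and its SAHA call was lost without replicate 1 of SAHA. EIF4E2, a weaker cap-binding paralog, was at -0.11, -0.08 and -0.07, and the helicase cofactor EIF4H at -0.14, -0.09 and -0.06, none of which passed.

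EIF4E3, a cap-binding paralog with little or no expression in untreated cells here, appeared with SAHA. Its counts were 0, 1 and 2 in DMSO and 0 in each BEZ-235 library, 24, 114 and 44 with SAHA and 35, 32 and 61 with both drugs. These are levels of 1.23 to 1.51 CPM with SAHA and 1.77 to 2.78 with both drugs, without overlap with the other groups. The ratio to DMSO was 29.7 with SAHA (95% counting interval 9.996 to 145) and 45.8 with both drugs (15.3 to 225). These intervals pool the reads of the 3 libraries of a group and leave out the spread between cultures. Against BEZ-235 a floor of 3 counts over that group was used. EIF4E3 was then at least 43.6-fold higher with both drugs and at least 28.5-fold higher with SAHA. EdgeR's adjusted p against DMSO was 4.28e-06 for SAHA and 2.94e-07 for both drugs.

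The eIF4E-binding proteins, the repressors through which mTOR acts on the cap, did not rise in any comparison against DMSO. EIF4EBP1 was at 55.2, 64.7 and 51.3 CPM in DMSO, 33.1, 29.9 and 26.8 with BEZ-235, 26.7, 34.8 and 36.7 with SAHA, and 30.2, 32.7 and 36.9 with both drugs. Every treated library was below every DMSO library, and the 3 treated groups overlapped. It fell by 0.93 ± 0.13 with BEZ-235 (adjusted p = 1.28e-05), by 0.79 with SAHA (adjusted p = 7.55e-05) and by 0.78 with both drugs (adjusted p = 4.22e-05). With the offset the falls were 0.78, 0.48 and 1.31, so that the combination then stood below both single drugs, by 0.53 against BEZ-235 and 0.83 against SAHA.

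Per kilobase of the longest transcript EIF4EBP1 was at 55.9 CPM in DMSO, EIF4EBP2 at 34.98 and EIF4EBP3 at 4.22. EIF4EBP2 was at 242 to 260 CPM in DMSO, at 213 to 230 with BEZ-235, 258 to 266 with SAHA and 228 to 249 with both drugs. It fell by 0.21 with BEZ-235 (adjusted p = 0.0166), a call lost without replicate 1 of DMSO, and was at 0.05 with SAHA (interval -0.10 to 0.20) and at -0.09 with both drugs. EIF4EBP3 was low, at 2.30 to 3.44 CPM in DMSO, 1.93 to 2.45 with BEZ-235, 0.289 to 0.893 with SAHA and 1.18 to 1.97 with both drugs. It fell by 2.49 ± 0.35 with SAHA (adjusted p = 2.65e-05) and the cultures with both drugs stood 1.59 above those with SAHA alone. Its fall with both drugs, 0.91, lost its call without replicate 2 of DMSO or replicate 3 of the combination. The gene lies within the readthrough gene ANKHD1-EIF4EBP3 on the same strand, which was at 66.5 CPM on average, so the division of reads between them is uncertain.

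EIF4ENIF1, which carries eIF4E into the nucleus, rose by 0.25 with BEZ-235 and fell by 0.33 with SAHA.

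EIF5A, which helps the ribosome through stretches such as prolines and carries the amino acid hypusine, moved against the TOP factors. It was at 365, 394 and 326 CPM in DMSO, 212, 192 and 183 with BEZ-235, 359.6, 408 and 424 with SAHA, and 293, 281 and 314 with both drugs. BEZ-235 libraries were the lowest, SAHA overlapped DMSO and the combination lay between. It fell by 0.88 ± 0.09 with BEZ-235 (adjusted p = 6.92e-07) and by 0.29 with both drugs (0.58 with the offset). EIF5AL1, a near copy at 1.16 to 1.68% of their shared reads, fell by 0.61 with BEZ-235. EIF5A2 was at 0.22 with BEZ-235 and fell by 0.37 with SAHA. The SAHA call was lost without replicate 1 or 3 of DMSO or 1 or 2 of SAHA. With both drugs EIF5A2 was called lower, at -0.45, and after the offset higher, at 0.26 (edgeR adjusted p = 0.0208). Its direction with both drugs thus depended on the offset. EIF6, which keeps the ribosomal subunits apart, was at 0.09 with BEZ-235 and fell by 0.29 with SAHA, a call lost without replicate 1 or 2 of DMSO or replicate 1 of SAHA.

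With SAHA alone more members fell than rose. Of the 66 tested members 28 (42.4%) fell and 4 (6.06%) rose, beside 20.9% lower and 22.2% higher of all genes. No called member had libraries that overlapped DMSO, but how often this held among all called genes was not counted. The median change was -0.19, beside -0.01 for all genes. The risers were EIF4E3, EIF1B, EIF2AK3 and EIF1. The deepest falls were those of EIF4EBP3, EIF4EBP1, EEF1D, EIF2B5 and EEF2KMT. Members of the TOP list had a median of -0.07 with 4 lower of 15, and the others -0.20 with 24 lower of 51. Without replicate 1 of SAHA 18 members in place of 28 fell, and with the offset 39 fell and 6 rose, beside 25.8% and 23.9% of all genes.

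With both drugs 20 members (30.3%) rose and 24 (36.4%) fell, beside 33.2% and 31.2% of all genes, so the shares were near the background. With the offset 25 rose and 23 fell, beside 34.6% and 30.9%. The TOP list still stood apart. Its median was 0.42, or 0.68 with the offset, with 11 of 15 higher (13 with the offset) and none lower. Members outside the list had a median of -0.13, with 9 higher and 24 lower. Of the 13 with a run, 8 rose and 1 fell, or 11 and none with the offset. The ribosomal protein genes had a median of 0.97 in this comparison. All comparisons against DMSO share its 3 cultures, so these values stand side by side and are not independent.

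Against BEZ-235 alone, adding SAHA lowered 31 members (47.0%) and raised 12 (18.2%), beside 28.5% lower and 29.5% higher of all genes. The deepest falls were EEF1E1 at -1.08, EIF1AX at -0.97, EIF2A at -0.94, EIF4A2 at -0.93 and EIF2AK2 at -0.88. With the offset these 5 were at -0.45, -0.25, -0.50, -0.42 and -0.38, all still called lower. Highest after EIF4E3 were EEF2 at 0.68, EIF5A at 0.60, EIF3G at 0.52 and EIF5AL1 at 0.48, which with the offset were at 0.22, 0.28, 0.06 and 0.60, the value of EIF3G then not called. Without replicate 3 of BEZ-235 the rises numbered 6, and the rise of EIF5AL1 was then not called (adjusted p = 0.0637). With the offset 29 fell and 10 rose, beside 27.1% and 28.9% of all genes, of which 20 and 7 were calls in the same direction as before, and 2 members were called in the opposite direction. These were EEF1A2, from 0.34 to -0.35, and EIF4G1, from 0.20 to -0.15. Before the offset the EEF1A2 call was lost in 2 and the EIF4G1 call in 7 of the fits that left out a library.

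Against SAHA alone, adding BEZ-235 raised 30 members (45.5%) and lowered 13 (19.7%), beside 29.9% and 28.9% of all genes. With the offset 36 rose and 9 fell, beside 28.4% and 23.9%. In the TOP list 14 of 15 rose and none fell, with a median of 0.70 (15 and 0.79 with the offset). The highest were EIF4EBP3 at 1.59, EEF2 at 1.56, EIF1 at 1.25, EIF3G at 1.10 and EEF1G at 0.98, which with the offset were at 1.14, 1.10, 1.37, 0.60 and 0.84. The lowest were EIF2S1, EIF4E and EEF1E1, each at -0.80, EIF2AK3 at -0.75 and EIF1AX at -0.70. With the offset these 5 were at -0.27, -0.24, -0.24, -0.54 and -0.04, and the values of EIF4E and EIF1AX did not pass.

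The interaction asks whether SAHA acted differently in the presence of BEZ-235, as the log2 effect of SAHA given on top of BEZ-235 less its effect given alone. It was called for 29 members, 13 (19.7%) positive and 16 (24.2%) negative. Among all genes 18.9% and 19.6% were called. Without replicate 3 of the combination 10 members were negative. The 13 positive members had transcripts of 47.9 to 65.5% GC and the 16 negative ones 35.1 to 47.3%, so the ranges did not overlap. Across the 66 members the Spearman correlation of the interaction with GC content was 0.77, as a description over genes that share the 12 libraries, and -0.05 after the offset. With the offset 10 members were positive and 4 negative, beside 10.4% and 8.59% of all genes. Of the calls, 4 positive and 3 negative ones remained in the same direction: EIF3C, EIF3G, EIF3K and EIF4EBP3, and EIF2A, EIF2AK3 and EIF4B.

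**Figure D4:**
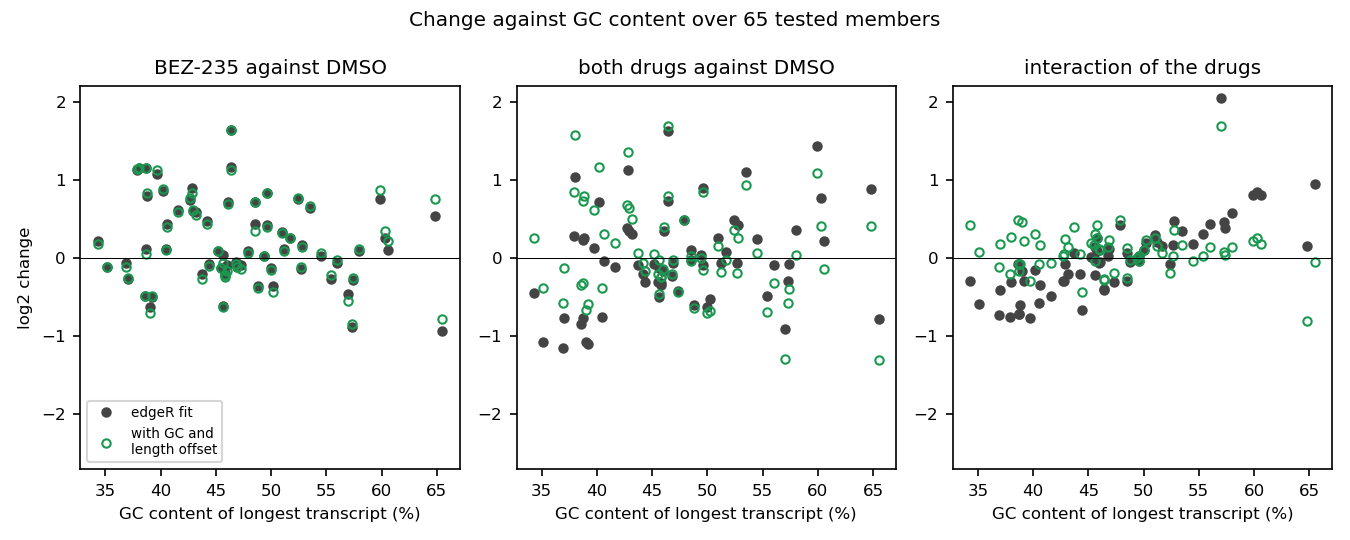
Log2 change (vertical axes) against the GC content of the longest transcript (horizontal axes, %) for the tested members without EIF4E3, with BEZ-235, with both drugs and for the interaction. Filled points are the edgeR fit and open green points the fit with the GC and length offset. The interaction climbs with GC content before the offset (Spearman's rho 0.77 over all 66 tested members) and not after it (-0.05).

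Other genes of the translation apparatus, from lists drawn up for this purpose, moved in different ways from list to list. Among all genes 25.5% rose and 25.4% fell with BEZ-235, and 33.2% and 31.2% with both drugs. Of 5 poly(A) binding genes 2 (40%) rose with BEZ-235 and none fell. The risers were PABPC1 at 1.02 and PAIP2B at 1.97. Of 8 termination and recycling genes none rose and 3 (37.5%) fell with BEZ-235. With both drugs 1 rose and 7 (87.5%) fell, ABCE1, which splits the ribosome for recycling, by 1.53. Of 9 genes that link mTOR and MAPK signals to translation 1 (11.1%) rose and 4 (44.4%) fell with BEZ-235. LARP1, which binds TOP mRNAs, was at 0.08, -0.14 and 0.12 in the comparisons of BEZ-235, SAHA and both drugs with DMSO. MKNK1, a kinase of eIF4E, rose by 1.85 with SAHA and by 2.44 with both drugs and was at 0.01 with BEZ-235, while its paralog MKNK2 fell by 0.54 with BEZ-235 and 0.59 with SAHA.

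Of the 4 tested genes that control eIF2 stress signalling 3 (75%) rose and 1 (25%) fell with BEZ-235. PPP1R15A, which directs the phosphatase of eIF2 alpha, rose by 1.35 ± 0.10 with BEZ-235 (edgeR adjusted p = 1.36e-08) and by 1.76 with both drugs. GCN1, which activates the kinase GCN2, fell by 0.34, 0.50 and 0.53 in the 3 comparisons. Of 9 genes that modify factors 3 (33.3%) rose and 2 (22.2%) fell with BEZ-235, near the 25.5% and 25.4% of all genes. DHPS and DOHH, which make hypusine on eIF5A, moved apart, at 0.49 and -0.84. DPH1 and DPH5, which make diphthamide on eEF2, rose by 1.00 and 1.21. DPH3, of the same pathway, fell by 0.53, and DPH2, DPH6, DPH7 and DNAJC24 did not pass. Of 9 mitochondrial translation factors 3 (33.3%) rose and 3 (33.3%) fell with BEZ-235, also near the shares of all genes.

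Reads of several members can be confused with near copies. The 39 pseudogenes named after EEF1A1 held 2.57 to 3.00% of its reads and theirs together. The 2 named after EIF1AX held 5.06 to 17.97%, which leaves that gene uncertain, and the 4 named after EIF2S2 2.69 to 6.39%. EIF3CL held 1.97 to 12.4% of the reads of EIF3C and EIF3CL together, with a spread between replicates that leaves both genes uncertain: EIF3CL was at 39.4, 56.9 and 10.5 CPM in the 3 libraries of the combination. EIF2S3B, at 2.26 to 5.33 CPM, held 1.23 to 2.16% of its reads with EIF2S3. Members such as EEF1B2 also overlap a gene on the other strand, here NDUFS1 at 250.1 CPM on average. The library kit keeps strand, but whether the counting used it is not given in the sources used here.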

How the data were processed

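Stranded polyA libraries of 12 NB-1 cultures were aligned with STAR and quantified with RSEM on hg38, per the submitters' processing notes (the versions, the annotation and the strand setting: not given in the sources used here). Expected counts per gene (RSEM estimates), as deposited by the authors, were rounded to whole numbers. Gene names and types came from GENCODE 29, which held 57447 of the 58051 identifiers. Genes passing filterByExpr (17774) were fitted with edgeR 4.0.16 (quasi-likelihood, robust, TMM scaling, 4 group means, 8 residual degrees of freedom), and p-values were adjusted by Benjamini-Hochberg over all of them. CPM used TMM-scaled library sizes. The offset was a spline of GC content and of transcript length (5 degrees of freedom each) fitted in each library. The code was tested on simulated data. Alternatives were DESeq2 1.42.0, other scaling and filters, a replicate block, the offset and each library left out. Named genes were a fixed set of factors plus the 5 highest and 5 lowest called members of each comparison. The members, lists and tests were chosen with earlier results of these data known. The main fit did not pair cultures by replicate number, since same-numbered cultures did not deviate together. Such weak correlations cannot show that the cultures were unpaired. The level of EIF1AY is not reported here.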

Additional observations from a re-analysis of the deposited data

Results flagged for a closer look

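By edgeR's interaction term at an adjusted p under 0.05, the effect of SAHA differed between cultures with and without BEZ-235 for 29 members. Of the tested members 19.7% were positive and 24.2% negative, near the 18.9% and 19.6% of all genes. With the GC and length offset 4 positive and 3 negative calls remained in the same direction. Every value here is the log2 difference between these effects followed by its value with that offset. Among the 13 positive members, the inhibitors of eIF4E led, EIF4EBP3 with 2.05 (1.69) and EIF4EBP1 with 0.95 (-0.05). The elongation factors followed with 0.81 (0.18) for EEF1D, 0.80 (0.22) for EEF2 and 0.35 (0.17) for EEF1G. Subunits of eIF3 were EIF3G at 0.85 (0.26), EIF3K at 0.47 (0.36), EIF3B at 0.44 (0.14) and EIF3C at 0.42 (0.49). The others were EIF6 at 0.57 (0.14), EIF5A at 0.46 (0.08), EIF4G1 at 0.39 (0.04) and EIF2B4 at 0.29 (0.25).

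Among the 16 negative members, factors of start codon selection were EIF2A at -0.77 (-0.30), EIF1AX at -0.59 (0.08), EIF5 at -0.49 (-0.07), EIF1 at -0.40 (-0.27), EIF2S1 at -0.30 (0.22) and EIF2S3 at -0.29 (0.03). The eIF2 kinases were EIF2AK2 at -0.71 (-0.08), EIF2AK3 at -0.67 (-0.44) and EIF2AK4 at -0.31 (-0.19). Subunits of eIF3 were EIF3E at -0.76 (-0.21) and EIF3J at -0.60 (-0.08). Cap-complex genes were EIF4A2 at -0.72 (-0.17), EIF4G2 at -0.57 (-0.08) and EIF4B at -0.41 (-0.28). EEF1E1 was at -0.73 (-0.11) and EEF1AKMT2 at -0.41 (0.18). With a library left out, the calls for EEF1G, EIF1, EIF2S1, EIF2S3, EIF2AK4 and EIF1AX were lost in 10, 8, 8, 9, 6 and 1 of the fits. The calls for EIF5, EEF1AKMT2 and EIF2B4 were not followed singly in those fits.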

How the results depend on the processing

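Values are log2 medians or log2 changes unless they count members. Under DESeq2, 294 of the 300 values of named genes kept their direction and side of the threshold, and under unrounded counts 300. Under the GC and length offset 217 did, and the cause of the changes was not tested. Adding the replicate block changed the call of 13 of the 300 values of named genes and none of the counts and medians of members; same-numbered cultures did not deviate together (18 pairs, r of -0.164 to 0.128, and 1 of 12 libraries correlated best with its own number).

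With the offset, alone and with the replicate block, medians for both drugs against DMSO were 0.68 and 0.68 in the TOP list and 0.61 and 0.61 for members with a run. Against BEZ-235 they were -0.09 and -0.09 over all members, -0.13 and -0.13 outside the TOP list and -0.07 and -0.07 without a run. Against SAHA members with a run had 0.79 and 0.80. For the interaction the medians were 0.11 and 0.11 over all members, 0.16 and 0.16 in the TOP list, 0.08 and 0.08 outside it, 0.10 and 0.10 with a run (from -0.21) and 0.14 and 0.14 without. The interaction then had 4 negative members (2 with the block), and 8 positive ones with the block.

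A run within 10 bases of the start gave medians of 0.44 with BEZ-235, 0.13 with both drugs (-0.31 without such a run), 0.30 against SAHA (-0.13 without) and -0.08 for the interaction. The wider TOP list left -0.26 outside it with both drugs, and no filter on low counts gave -0.04 outside the TOP list against SAHA.

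Directions that turned with the offset, given with and without the block, were as follows. For both drugs against DMSO, EIF3F was at 0.31 and EIF5A2 at 0.26 in both fits. The call of EIF5A2 turned from lower to higher. Against BEZ-235, EEF1A2 was at -0.35 (-0.34 with the block), and both fits gave EEF1D -0.36, EIF3H 0.29, EIF3M 0.43, EIF4E 0.03, EIF4EBP1 -0.53, EIF4G1 -0.15, EIF5A2 0.08 and EIF6 -0.07. Against SAHA, EIF4EBP1 was at -0.83 (-0.82 with the block), EIF4EBP2 at 0.13 without the block, and both fits gave EEF1A2 -0.05, EIF4G1 -0.22, EIF4G2 0.02 and EIF5A2 0.61. For the interaction EIF1AX was at 0.08 (0.09), EIF4EBP1 at -0.05 (-0.04), EIF5A2 at 0.42 (0.43), EIF4E at 0.46 without the block, and both fits gave EEF1A2 -0.80, EIF2S1 0.22 and EIF2S3 0.03.

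With each library left out, the median of all members with BEZ-235 ranged from 0.01 to 0.16, and the members lower with SAHA numbered 18 to 30. With both drugs the median was -0.23 to -0.13 outside the TOP list and -0.24 to -0.14 without a run. Against BEZ-235 the members higher numbered 6 to 12, with medians of -0.26 to -0.17 over all and -0.27 to -0.08 in the TOP list. Against SAHA the medians were 0.11 to 0.27 over all, 0.60 to 0.75 in the TOP list, -0.04 to 0.08 outside it and 0.40 to 0.68 with a run. For the interaction 10 to 19 members were negative, with medians of -0.11 to 0.02 over all and -0.08 to 0.02 outside the TOP list. EIF4E3 and EIF4EBP3 rested on few counts, which limits their precision.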
